A study of Rattus norvegicus with 15 samples.

Results

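The subject is a pair of microRNAs of the immune response, miR-146a and miR-150, measured in rat heart muscle cells after doxorubicin (DOX) or myocardial infarction (MI). Both were chosen by name, as the rows for rno-miR-146a and rno-miR-150 among 420 rat miRNA probes, so there are 2 members of 420 probes. The counts come from the nCounter assay, which joins each miRNA to a tag and counts single tagged molecules by a coloured barcode, 1 lane per sample. The 15 samples form 5 groups of 3, all of cardiomyocytes from adult Sprague Dawley rats.

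The vehicle group was healthy cardiomyocytes given saline in culture for 6 h, and the in vitro DOX group was healthy cardiomyocytes given DOX in culture for 6 h. The in vivo DOX group was cells from rats brought to heart failure by repeated DOX injections. The MI group was cells from rats 4 weeks after ligation of the left coronary artery. The age-matched control group was cells from healthy rats. Every group shares a plating step of 1 h on laminin, after which only attached cells were taken for TRIzol extraction. The dose of DOX and the ages are not given in the sources used here. Nothing in the labels tells if the 3 samples in each group are different animals or cultures. The p-values therefore describe the spread among these samples only, which may be technical.

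A miRNA is a short RNA that guides a silencing complex to mRNAs, mainly through its seed, the bases near its 5′ end. In human and mouse cells transcription of miR-146a is raised by NF-kB, and the miRNA represses the adaptor Traf6 and the kinase Irak1, which closes a negative feedback loop on Toll-like and interleukin-1 receptor signalling. The other member, miR-150, is abundant in mature lymphocytes, where it represses the transcription factor Myb. Both have been studied in heart failure and infarction, and both occur in leukocytes as well as at lower levels in other cells.

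RefSeq mature sequences (build GRCr8) were matched for 1 of the 2 members, miR-146a. The sequence is shown beside that of miR-146b, the only other rat mature miRNA in the table with the same seed, because the panel measured both. The sequence of miR-342-3p, a leukocyte-enriched miRNA at rank 3 by correlation with miR-150, is shown for its different seed. It was above background in only 9 of 15 lanes. Capitals mark the seed, bases 2 to 8 from the 5′ end. The panel names miR-146a without an arm, and the 5p arm is the one printed.
miR-146a-5p: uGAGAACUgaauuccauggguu
miR-146b-5p: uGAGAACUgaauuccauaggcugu
miR-342-3p: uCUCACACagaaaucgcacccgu

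The mature miR-146a-5p lies at chr10:28350053-28350074 on the minus strand. The mature miR-146b-5p lies at chr1:255144874-255144897 on the plus strand, and miR-342-3p at chr6:133329715-133329737 on the plus strand. Of the first 22 bases, 20 are the same in miR-146a-5p and miR-146b-5p. The differences are G18A and U21C, written with the base of miR-146a first and counted from 1 at the 5′ end, and miR-146b-5p has 2 further bases at its 3′ end. Within the hairpin of 95 bases, on the minus strand of chr10:28349996-28350090, the 5p arm of miR-146a is the part in capitals.
Mir146a hairpin: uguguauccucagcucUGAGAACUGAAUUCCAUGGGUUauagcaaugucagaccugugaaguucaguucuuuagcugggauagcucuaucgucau

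Lanes held 36977 (a control) to 137746 (a vehicle sample) miRNA counts in all, with MI lanes at 40381 to 77375, in vivo DOX lanes at 54608 to 133965 and in vitro DOX lanes at 71522 to 104987. Of 420 probes, 109 exceeded the lane background in at least 3 of 15 lanes and were tested, with the background of a lane set 2 SD above the mean of its 8 negative controls. Of the 6 listed cardiomyocyte markers, miR-1, miR-133a, miR-133b, miR-208 and miR-499 lay above background in all 15 lanes and miR-208b-3p in none. Their summed level, most of it miR-1, was 281241 to 295358 CPM (normalized counts scaled to a fixed total of miRNA counts) in vehicle, 222292 to 345730 in in vitro DOX, 352579 to 354944 in controls, 253000 to 352692 in in vivo DOX and 220387 to 312559 in MI. The 3 in vitro DOX lanes carried another stage position in the file headers and another run number in the names of their data files than the other 12 lanes, so the effect of DOX in culture cannot be told apart from stage position or run. In 3 groups 1 sample stood apart over all probes. The chi-square per degree of freedom against the other samples of the group was 36.0 and 41.1 for in vitro DOX sample 3, 30.9 and 17.8 for in vivo DOX sample 1, and 10.4 and 11.3 for MI sample 3. Between the remaining samples of those groups it was 1.85, 4.66 and 1.82, and it was 1.5 to 1.83 among vehicle samples and among controls.

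Both members lay above background in 15 of 15 lanes. The count of miR-146a was 455, 472 and 416 in vehicle samples 1, 2 and 3, and 615, 395 and 292 in the in vitro DOX samples. The controls had 47, 59 and 78, the in vivo DOX samples 291, 152 and 107, and the MI samples 169, 415 and 92. The controls were the lowest, at 1.63 to 2.64 times the lane background, and the other groups were at 2.6 to 19.7 times it. Counts of the assay's positive controls summed to 4229 to 9661 in MI lanes and 10053 to 24224 in the other lanes. The lane background was 11.8 to 21.1 in MI and 19.6 to 47.2 elsewhere. Multiples of background, and lanes counted as above it, are therefore not alike between MI and the other groups. The lowest count, 47, has an exact Poisson 95% interval of 34.5 to 62.5, which covers counting error only. The mean of the negative controls equalled 14.1% to 23.7% of the miR-146a count in the age-matched controls and 1.96% to 12.2% of it in the other groups.

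The count of miR-150 was 906, 936 and 782 in vehicle, and 2898, 2206 and 466 in in vitro DOX. The controls had 142, 241 and 238, the in vivo DOX samples 1395, 1580 and 670, and the MI samples 416, 874 and 147. These counts stood 6.66 to 66.8 times over background. Ranked by count within a lane, miR-150 was between place 11 and place 35 and miR-146a between place 21 and place 57. The closest relative by seed, miR-146b, had counts of 12 to 29 and lay above background in 1 of 15 lanes, an MI lane, so it was not tested.

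**Figure D1:**
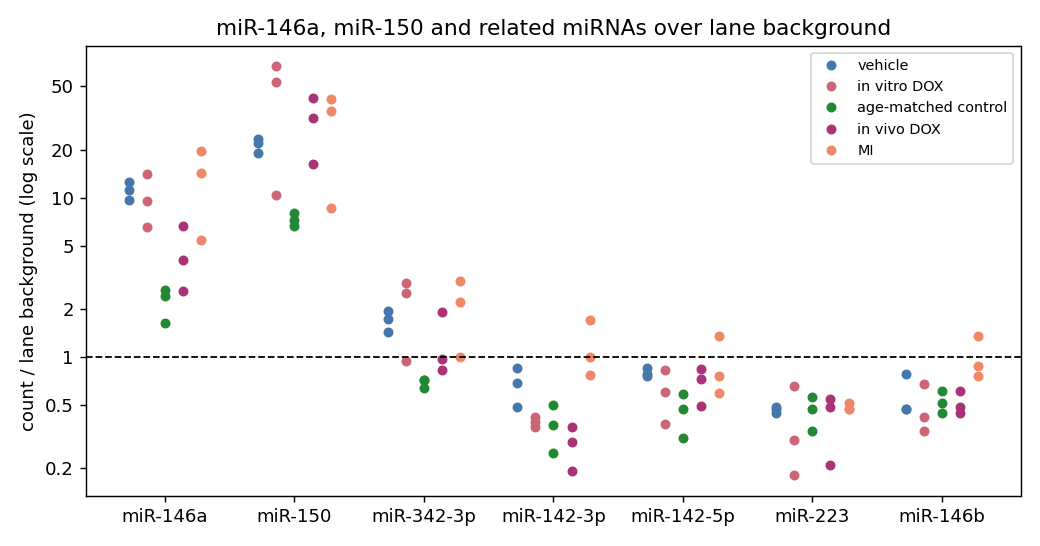
Count of each miRNA divided by its lane background (log scale, dashed line at 1), 1 point per sample, coloured by group. Counts of miR-146a and miR-150 lay above the line in all 15 lanes, miR-342-3p in 9, miR-142-3p, miR-142-5p and miR-146b in 1 each, and miR-223 in none. The MI lanes had lower backgrounds than most other lanes.

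After TMM scaling, the level of miR-146a was 1178 ± 209 CPM in the controls, 3729 ± 1775 after MI, 2065 ± 277 after DOX in vivo, 3307 ± 135 with vehicle and 4957 ± 1986 with DOX in culture (SD, n = 3 each). The order of the means was in vitro DOX, MI, vehicle, in vivo DOX and age-matched control. In vitro DOX overlapped MI and MI overlapped vehicle, whereas vehicle did not overlap in vivo DOX, nor in vivo DOX the controls. Vehicle and in vivo DOX differed by 0.68 on the log2 scale, with an adjusted p of 0.0990 in edgeR, where 47.7% of the 109 miRNAs were called.

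The level of miR-150 was 3904 ± 75.1 CPM in the controls, 8021 ± 4470 after MI, 14659 ± 6070 after DOX in vivo, 6454 ± 332 with vehicle and 21772 ± 14966 with DOX in culture (SD, n = 3 each). The order was in vitro DOX, in vivo DOX, MI, vehicle and age-matched control. The first 3 pairs of neighbours overlapped, and vehicle and controls did not. In the in vitro DOX and MI groups sample 3 was the lowest for both members. The dispersion edgeR fitted, the squared variation between samples beyond counting, was 0.248 for miR-150 and 0.0876 for miR-146a.

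**Figure D2:**
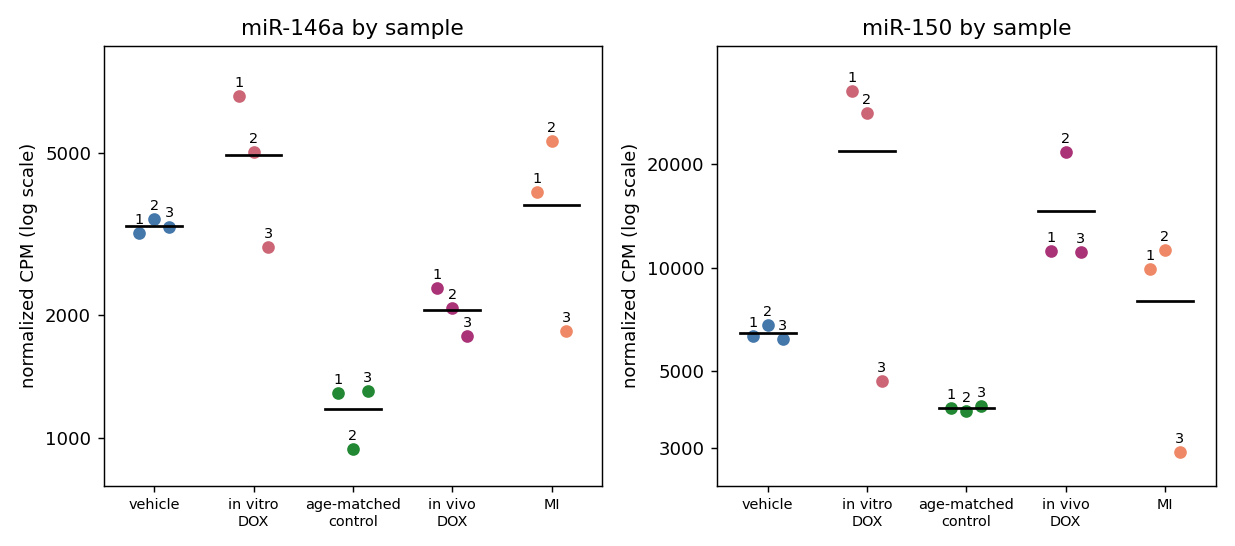
Normalized CPM of miR-146a (left) and miR-150 (right) on log scales, 1 point per sample with its replicate number, and a line at each group's mean. All 3 age-matched controls were below every vehicle and in vivo DOX sample for both miRNAs, and in vitro DOX sample 3 and MI sample 3 were far below the other samples of their groups.

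The comparison of in vitro DOX with vehicle asked what 6 h of the drug did to isolated cardiomyocytes. The lymphocyte miRNA miR-150 rose 3.37-fold. Its normalized level was 32534, 28100 and 4682 CPM with DOX, against 6323, 6831 and 6206 with vehicle. Samples 1 and 2 were above all vehicle samples and sample 3 was below all of them, so the groups overlapped. The log2 fold change was 1.75 (SE 0.61), with a 95% interval of 0.42 to 3.09 and an adjusted p of 0.0468 in edgeR. It was the largest log2 fold change of the 109 miRNAs, of which 30.3% were called in this comparison and 16.5% were called higher, while the median over all 109 was 0.27. Without in vitro DOX sample 3 the log2 fold change was 2.23, with an adjusted p of 6.23e-05. The call was lost when any one of vehicle samples 1, 2 and 3 or of DOX samples 1 and 2 was left out, with adjusted p from 0.10 to 0.198. It was also lost under 8 of 13 other settings, total-count, housekeeping and positive-control scaling among them.

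The NF-kB target miR-146a did not pass the test after DOX in culture. Its level was 6904, 5032 and 2934 CPM with DOX and 3176, 3445 and 3302 with vehicle. As for miR-150, samples 1 and 2 were above all vehicle samples and sample 3 was below them. The log2 fold change was 0.58 (SE 0.33), with a 95% interval of -0.10 to 1.27 and an adjusted p of 0.151 in edgeR. Without in vitro DOX sample 3 it was 0.85, with an adjusted p of 0.0106, and without sample 1 it was 0.27, with an adjusted p of 0.588. In the authors' deposited table of quantile-normalized means, miR-146a was 296 with vehicle and 534 with DOX (p = 0.211), and miR-150 was 574 and 1683 (p = 0.149), with p-values from the authors' own test and not from edgeR.

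The comparison of in vivo DOX with age-matched controls asked what repeated injections had done by the time of heart failure. All 3 in vivo DOX samples were above all 3 controls for both members, yet neither passed the adjusted test. The level of miR-150 was 11177, 21668 and 11132 CPM after DOX and 3905, 3829 and 3979 in controls. Sample 2 was the highest, and the lowest DOX sample was still well above the highest control. The log2 fold change was 1.91 (SE 0.62, 95% interval 0.55 to 3.26), which is 3.75-fold, with an unadjusted p of 0.00963 and an adjusted p of 0.0847 in edgeR. It was again the largest log2 fold change of the 109 miRNAs. Without in vivo DOX sample 1, which stood apart, it was 2.07 with an adjusted p of 0.0513. Fitted on the in vivo DOX and control samples alone, it was 1.80 (SE 0.29, adjusted p 0.000183 in edgeR), and 13 of 109 miRNAs were called.

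The level of miR-146a was 2332, 2084.5 and 1778 CPM after DOX in vivo and 1293, 937 and 1304 in controls. The groups did not overlap, and the lowest DOX sample was sample 3, still above the highest control. The log2 fold change was 0.82 (SE 0.35, 95% interval 0.10 to 1.54), with an adjusted p of 0.150 in edgeR, and without sample 1 it was 0.72 with an adjusted p of 0.151. The adjusted test called 3.67% of the 109 miRNAs in this comparison and called 2.75% higher, and 19.3% were higher with no overlap between the groups. With DESeq2 both passed, miR-146a at a log2 fold change of 0.91 (adjusted p 0.0313) and miR-150 at 2.0 (adjusted p 0.00826), where DESeq2 called 16.5% of the 109 miRNAs. The authors' deposited table gave miR-146a as 130 in controls and 275 after DOX (their p = 0.0107), and miR-150 as 359 and 1442 (their p = 0.0181). Their p-values are not labelled as adjusted, and 41 of the 420 miRNAs in that table had one under 0.05.

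The comparison of MI with the same 3 age-matched controls asked what infarction had done after 4 weeks. Here miR-146a rose 3.18-fold. Its level was 4020.0, 5341 and 1827 CPM after MI and 1293, 937 and 1304 in controls. Sample 3 was the lowest of the MI samples, and the groups did not overlap. The log2 fold change was 1.67 (SE 0.35, 95% interval 0.94 to 2.40), with an adjusted p of 0.000895 in edgeR. Of the 109 miRNAs, 37.6% were called and 15.6% were called higher, and 24.8% were higher with no overlap. The call held in each of the 6 fits that left out 1 sample, with log2 fold changes from 1.31 to 2.0, the highest of them without MI sample 3. It was just missed when lanes were scaled by the housekeeping mRNAs, at 1.17 with an adjusted p of 0.0509. The authors' deposited table gave 130 in controls and 285 after MI (their p = 0.0362).

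After MI miR-150 did not pass. Its level was 9895 and 11249 CPM in MI samples 1 and 2, above all controls, and 2919 in sample 3, below all of them. The log2 fold change was 1.04 (SE 0.61, 95% interval -0.29 to 2.37), with an adjusted p of 0.226 in edgeR. Without MI sample 3 it was 1.44 with an adjusted p of 0.0544. Without MI sample 3, in vitro DOX sample 3 and in vivo DOX sample 1 together, a choice made after seeing the data, it was also 1.44, with an adjusted p of 3.19e-14 in edgeR, where 68 of 109 miRNAs were called.

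The in vivo DOX and MI comparisons share the 3 control samples, so the direct comparison of in vivo DOX with MI is the one that asks whether the failing hearts differed. Neither member passed it. The log2 difference was -0.85 (SE 0.34, 95% interval -1.55 to -0.16) for miR-146a, with an adjusted p of 0.0552 in edgeR. For miR-150 it was 0.87 (SE 0.60, 95% interval -0.44 to 2.18), with an adjusted p of 0.289. In vivo DOX and MI samples overlapped for both members, and 32.1% of the 109 miRNAs were called. Leaving out MI sample 3 brought miR-146a to -1.18 with an adjusted p of 0.00805, and leaving out in vivo DOX sample 1 brought it to -0.95 with an adjusted p of 0.0427. Leaving out MI sample 2 brought it to -0.49 with an adjusted p of 0.331.

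Vehicle and age-matched controls are both cells without DOX or infarction, and they gave the second called difference of miR-146a. It was 2.81-fold higher in vehicle, with 3 vehicle samples between 3176 and 3445 CPM and 3 controls between 937 and 1304. The log2 difference was 1.49 (SE 0.35, 95% interval 0.77 to 2.21), with an adjusted p of 0.00611 in edgeR, and 18.3% of the miRNAs were called and 8.26% called higher. The call held in each of the 6 fits without 1 sample, at 1.35 to 1.65, and was lost with housekeeping scaling, at 1.08 with an adjusted p of 0.0825. The groups did not overlap for miR-150 either, at 6206 to 6831 CPM against 3829 to 3979, but the log2 difference of 0.72 (SE 0.61, 95% interval -0.59 to 2.04) had an adjusted p of 0.448. That SE rests on a spread shared by all 5 groups, which for miR-150 was far wider in the DOX and MI samples. Fitted on vehicle and controls alone, the difference was 0.78 (SE 0.10, adjusted p 4.54e-12 in edgeR), and 67 of 109 miRNAs were called. Within each of these groups the samples differed by little more than counting error, so that small SE may reflect technical spread only. The p of this fit therefore describes these samples alone and was not taken over the pooled result. Of all 109 miRNAs, 30.3% were higher in vehicle with no overlap between these groups.

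The effect of DOX in vivo minus that in vitro was 0.23 (SE 0.48, 95% interval -0.75 to 1.22) for miR-146a and 0.15 (SE 0.85, 95% interval -1.69 to 2.0) for miR-150, on the log2 scale. Neither passed in edgeR, at adjusted p of 0.916 and 0.942, and 0.917% of miRNAs did. This contrast contains in vitro DOX against vehicle, so it cannot be told apart from stage position or run either. The level of miR-146a itself was higher in the cells given DOX in culture than in cells from DOX-injected rats, with no overlap and a log2 difference of 1.26 (SE 0.34, adjusted p 0.0260 in edgeR). In that comparison 5.5% of miRNAs were called, and stage position and group cannot be told apart.

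**Figure D3:**
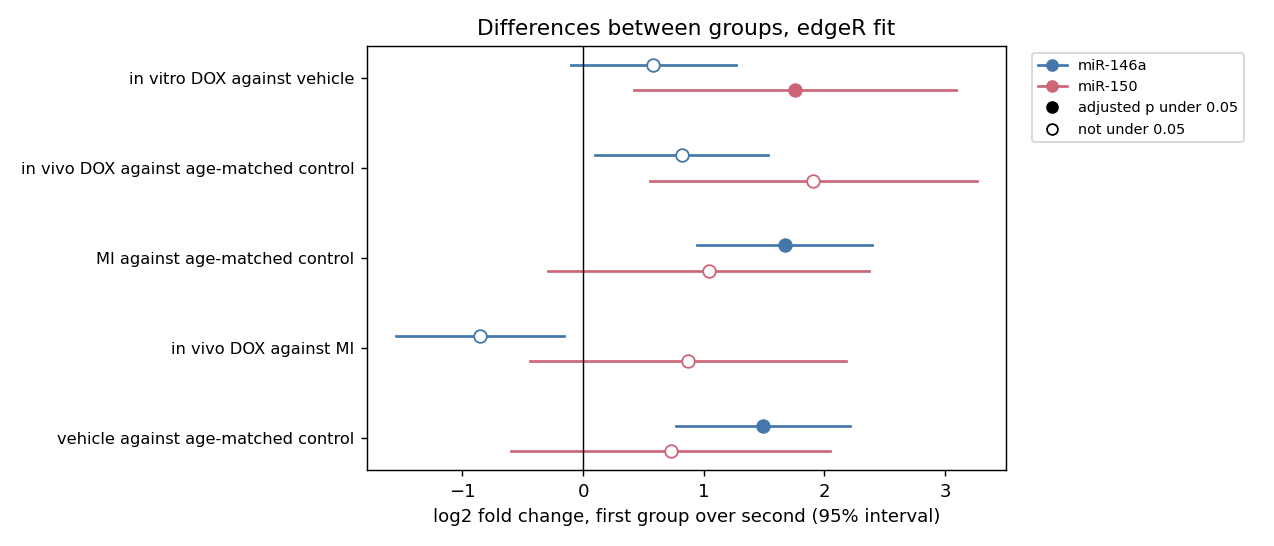
Log2 fold change of miR-146a (blue) and miR-150 (red) in 5 comparisons from the edgeR fit, with 95% intervals, filled where the adjusted p was under 0.05. For miR-146a the filled points are MI and vehicle, each against age-matched controls, and for miR-150 the filled point is in vitro DOX against vehicle.

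How lanes were scaled moved these differences, and moved all miRNAs with them. Over TMM, total miRNA count, housekeeping and positive-control scaling, TMM after background subtraction and TMM with no filter, the median log2 difference of the tested miRNAs between MI and controls ran from -0.63 to 1.26. The difference of miR-146a minus that median stayed between 1.67 and 1.84, and that of miR-150 between 1.02 and 1.15. For in vivo DOX against controls the median ran from -0.74 to 0.32, and the members minus the median from 0.81 to 0.96 for miR-146a and from 1.85 to 1.96 for miR-150. For in vitro DOX against vehicle the median ran from -0.28 to 0.27, and the members minus the median from 0.16 to 0.33 for miR-146a and from 1.17 to 1.52 for miR-150. For vehicle against controls miR-146a minus the median was 1.57 to 1.66. A lane scaling moves all miRNAs of a lane alike, so taking off the median cancels most of it by construction, and the narrow ranges are no test of the differences.

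**Figure D4:**
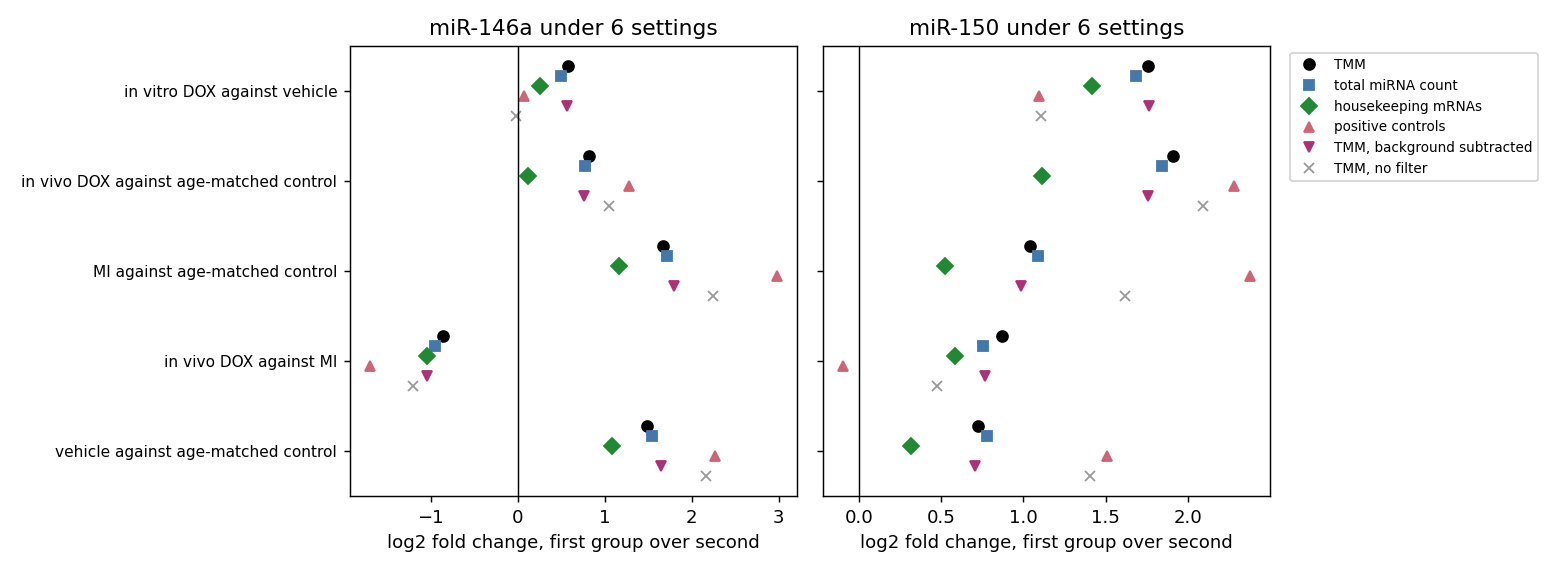
Log2 fold change of each member in 5 comparisons under 6 settings for scaling, background and filter. Without a filter miR-146a moved to -0.02 for in vitro DOX against vehicle, and with positive-control scaling miR-150 moved to -0.09 for in vivo DOX against MI, while in the other comparisons no marker crossed 0.

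The members were also set against each other. The ratio of their counts within a lane needs no lane scaling, and it was chosen after the values were seen. Differences of this ratio between groups can be read, but its absolute size cannot, because the probes may differ in efficiency. The number of miR-150 counts per miR-146a count was 1.99, 1.98 and 1.88 in vehicle, and 4.71, 5.58 and 1.60 in in vitro DOX. It was 3.02, 4.08 and 3.05 in age-matched controls, 4.79, 10.4 and 6.26 in in vivo DOX, and 2.46, 2.11 and 1.60 in MI. Every in vivo DOX sample was above every control, and every MI sample was below every control. With the mean of the negative controls subtracted, in vivo DOX sample 1 was at 5.01 and control sample 2 at 5.04, so those groups overlapped. The MI samples, at 1.63 to 2.5, stayed below the controls, at 3.39 to 5.04.

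The ratio was 2.02-fold higher in in vivo DOX than in controls, and its log2 difference between MI and controls was -0.73. It was 3.35-fold higher in in vivo DOX than in MI. Between vehicle and controls, neither with DOX or infarction, the log2 difference was -0.78, and the groups did not overlap. Each of these had an exact two-sided permutation p of 0.1, the smallest that 3 samples against 3 allow. Groups that do not overlap always give this p, and the ratio was chosen after the values were seen, so it adds no support. Between in vitro DOX and vehicle the groups overlapped, with a log2 difference of 0.83 and an exact permutation p of 0.4, and it was 1.39 without in vitro DOX sample 3 and 0.49 without sample 2. Leaving out any 1 sample, leaving out the 3 samples that stood apart, or subtracting background gave log2 differences of 0.71 to 1.27 for in vivo DOX against controls, -0.92 to -0.56 for MI against controls, -0.97 to -0.64 for vehicle against controls and 1.44 to 2.0 for in vivo DOX against MI.

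**Figure D5:**
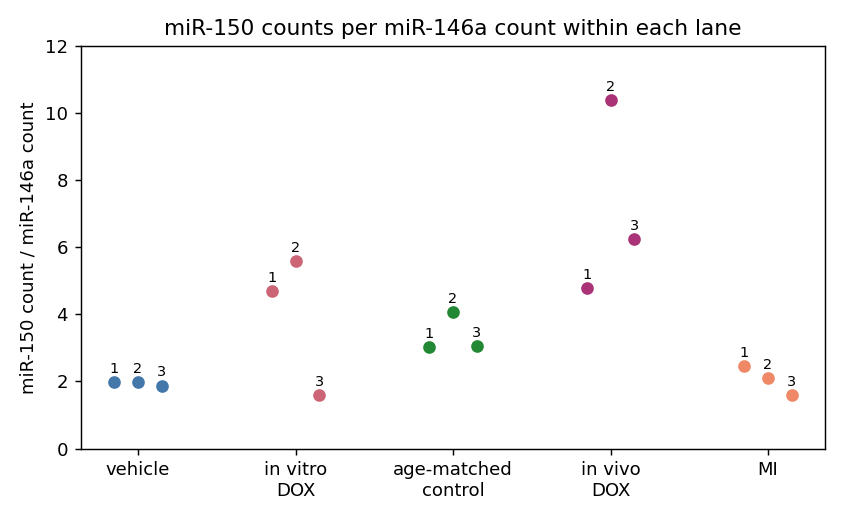
Counts of miR-150 per count of miR-146a in each lane, 1 point per sample with its replicate number. The in vivo DOX samples sit between 4.79 and 10.4, the age-matched controls between 3.02 and 4.08 and the MI samples between 1.60 and 2.46.

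Other miRNAs of leukocytes and of innate immune signalling were mostly at background. Of the 11 leukocyte-enriched miRNAs listed, 10 were on the panel and 4 were tested: both members, miR-181a, a modulator of lymphocyte receptor signalling, and miR-342-3p. Of these 4, 2 were higher after MI, miR-146a and miR-181a, at a log2 fold change of 0.72 (adjusted p 0.0495 in edgeR) for the latter, beside 15.6% of all 109 called higher. In vivo DOX against controls called 0 of the 4 in edgeR, with 2 of them, the members, at an unadjusted p under 0.05 and the same 2 called by DESeq2, beside 3.67% of all 109 called in edgeR and 16.5% in DESeq2. In vitro DOX against vehicle called 1, miR-150, beside 30.3% of all 109. The median log2 fold change of the 4 was 0.88 after MI, 0.80 for in vivo DOX and 0.81 for in vitro DOX, beside medians over all 109 of -0.03, 0.00 and 0.27. The members are 2 of these 4 and so partly set that median. In the same order miR-181a was at 0.72, 0.03 and 0.13. For miR-342-3p, below background in all 3 controls, the values were 0.71, 0.78 and 1.05. The myeloid miRNA miR-223 was above background in 0 of 15 lanes, with counts of 6 to 27. The pan-leukocyte miR-142-3p and miR-142-5p were above it in 1 lane each.

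Of 10 miRNAs listed as induced by NF-kB or innate immune signals, 9 were on the panel and 4 were tested. After MI 3 of the 4 rose, beside 15.6% of all 109 miRNAs called higher: miR-146a, miR-21, which is also raised in stressed heart tissue, at 0.81 (adjusted p 0.0442 in edgeR), and miR-132 at 1.13 (adjusted p 0.0395). The fourth, miR-125b-5p, was at 0.04. Of the 3 that rose, miR-132 was above background in 0 controls, with counts of 5 to 16. In MI it was above background in 2 samples, with counts of 13 to 46. The rise of miR-132 was therefore set against counts within background, and its size cannot be read as a ratio of measured levels. After DOX in culture miR-21 fell by 0.87 on the log2 scale (adjusted p 0.0391 in edgeR), while miR-146a was at 0.58. In vivo DOX against controls called 0 of these 4 in edgeR, with 3 at an unadjusted p under 0.05 and 2, miR-146a and miR-125b-5p, called by DESeq2, beside its 16.5% of all miRNAs. There miR-21 was at -0.73 and miR-146a at 0.82. The median of the 4, which miR-146a partly sets as 1 of them, was 0.97 after MI, 0.50 for in vivo DOX and 0.51 for in vitro DOX. Over all 109 it was -0.03, 0.00 and 0.27.

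The cells were labelled pure cardiomyocytes, and markers of other cell types were measured beside the members. In bulk RNA, fewer cells of a type and less RNA per cell cannot be told apart. Of the 7 listed leukocyte markers, which include both members, 6 were on the panel. The other 4, miR-142-3p, miR-142-5p, miR-223 and miR-342-3p, summed to 976 to 1186 CPM in vehicle, 864 to 2191 in in vitro DOX, 936 to 1255 in controls, 881 to 1618 in in vivo DOX and 953 to 1618 in MI. The myeloid miR-223 was below background in every lane, and miR-142-3p and miR-142-5p in 14 of 15. Both erythroid markers, miR-451 and miR-144, were below background in every lane.

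The endothelial miR-126 and the fibroblast miRNA miR-199a-3p were higher in MI and in vehicle than in controls, as miR-146a was. The level of miR-126, 1 of 2 listed endothelial markers, was 66721 to 70808 CPM in vehicle, 70925 to 92753 in in vitro DOX, 20104 to 22102 in controls, 22364 to 39485 in in vivo DOX and 46623 to 131043 in MI. It was 4.64-fold higher in MI than in controls (adjusted p 5.55e-06 in edgeR), 3.20-fold lower in in vivo DOX than in MI (adjusted p 0.000364) and 1.70 higher on the log2 scale in vehicle than in controls (adjusted p 0.000447). The 3 fibroblast markers, miR-199a-3p, miR-199a-5p and miR-214, of which miR-214 was below background in every lane, summed to 2278 to 2350 CPM in vehicle, 2777 to 3458 in in vitro DOX, 908 to 1112 in controls, 1180 to 1797 in in vivo DOX and 3793 to 6229 in MI. The level of miR-199a-3p was 6.04-fold higher in MI than in controls (adjusted p 1.72e-07 in edgeR), and 1.39 higher on the log2 scale in vehicle than in controls (adjusted p 0.00148). The part of these markers in the miR-146a differences was not tested.

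Within a lane, the count of miR-146a was 4.37% to 6.43% of that of miR-126 in controls and 3.07% to 4.53% of it in MI. The groups overlapped, and 2 of 3 MI samples were below every control. This follows from the fold changes after MI, 4.64 for miR-126 and 3.18 for miR-146a, and the source of miR-146a was not tested. In vehicle it was 4.66% to 4.94%. In in vivo DOX it was 5.91% to 7.95%, overlapping controls. The smooth muscle markers, miR-143 and miR-145, summed to 52586 to 60285 CPM in controls, 54900 to 104746 in in vivo DOX, 46881 to 62628 in MI, 46348 to 50709 in vehicle and 47501 to 98692 in in vitro DOX, nearly all of it miR-145. The smaller of them, miR-143, fell by 1.34 on the log2 scale for in vitro DOX against vehicle (adjusted p 0.00504 in edgeR), where miR-145 was at 0.71 without passing.

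Of the cardiomyocyte markers, miR-1 was at 0.26 for in vitro DOX against vehicle, 0.01 for in vivo DOX against controls and -0.38 for MI against controls on the log2 scale, and passed in none of them. In the same order miR-133b fell by 1.69 (adjusted p 0.000618 in edgeR), 1.33 (adjusted p 0.0229) and 1.32 (adjusted p 0.00211), and miR-208 fell by 1.01 after MI (adjusted p 0.0137). For DOX, miR-208 was at 0.21 in vitro and -0.10 in vivo. Also in that order, miR-133a was at -0.70, -0.71 and -0.74 and miR-499 at -1.29, -0.77 and -0.81, with neither passing. Against miR-1, the count of miR-146a was 0.368% to 0.512% of miR-1 in controls, 0.688% to 0.915% in in vivo DOX and 0.726% to 3.14% in MI. The in vivo DOX and MI values were all above the controls. The count of miR-150 was 1.5% to 1.56% of miR-1 in controls, 4.39% to 7.15% in in vivo DOX and 1.16% to 6.61% in MI, where sample 3 was the one below the controls. In culture miR-150 was 3.05% to 3.50% of miR-1 with vehicle and 1.80% to 14.2% with DOX.

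The miRNAs whose log2 normalized level was most like that of miR-146a over the 15 samples were miR-450a (Pearson r = 0.92), miR-126 (0.90), miR-195 (0.87), miR-25 (0.86) and miR-199a-3p (0.83). For miR-150 they were miR-26b (0.89), miR-23a (0.88), miR-342-3p (0.87), miR-151 (0.87) and miR-10a-5p (0.85). The members correlated with each other at 0.67, which placed miR-150 at rank 13 for miR-146a and miR-146a at rank 16 for miR-150. The 15 points fall in 5 groups and share lane scaling, so these coefficients are descriptions and carry no p.

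These companions were picked on the same 15 samples, so their own changes are given as values and support nothing about the members. After MI miR-450a was 3.42-fold higher (adjusted p 0.000432 in edgeR), miR-195 3.13-fold higher (adjusted p 0.00171) and miR-25 1.67-fold higher (adjusted p 0.0395). Of the companions of miR-150, miR-151 was 1.74-fold higher after MI (adjusted p 0.0434), while miR-26b, miR-23a, miR-342-3p and miR-10a-5p were at log2 fold changes of 0.18, 0.64, 0.71 and 0.12 and did not pass. After DOX in culture miR-151 rose 2.04-fold (adjusted p 0.0124), and miR-26b, miR-23a and miR-342-3p were at 0.77, 0.62 and 1.05 on the log2 scale without passing.

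The leukocyte miR-342-3p was close to background. Its counts were 81, 61 and 65 in vehicle, 126, 105 and 42 in in vitro DOX, 14, 23 and 21 in controls, 36, 72 and 40 in in vivo DOX, and 26, 63 and 17 in MI. In vitro DOX sample 3 and MI sample 3 were the lowest of their groups, as for miR-150. Within in vivo DOX the lowest count of miR-342-3p was in sample 1, whereas that of miR-150 was in sample 3. The count of miR-342-3p was below background in all 3 controls. It was also below background in in vivo DOX samples 1 and 3 and in in vitro DOX sample 3, so no ratio to it is given.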

How the data were processed

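Per the labels' protocols, total RNA was hybridised in solution to miRNA tags with assay controls. The first sheet the authors deposited holds whole barcode counts without normalization, taken under the unit of estimated counts. A second deposited sheet holds the authors' corrected counts. The authors' other sheets hold signal scaled by positive controls and by summed miRNA counts. The authors' comparison tables hold group means of quantile-normalized signal, a p-value and a t score. Which software made these tables is not given in these sources.

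Raw counts of 109 miRNAs (filter given above) were fitted with the robust quasi-likelihood test of edgeR 4.0.16 in R 4.3.3, with TMM, all 15 samples and 1 mean per group. The spread of each miRNA was estimated once over all 5 groups. P-values were adjusted by Benjamini-Hochberg over all 109, and called under 0.05. DESeq2 1.42.0 and limma 3.58.1 (pseudocounts 1 and 10) were alternatives. Named miRNAs were the 2 members, all listed miRNAs and, for each member, the 5 with the highest Pearson correlation. Members and lists were chosen with earlier results of these data known. Listed miRNAs miR-155 and miR-126* were not analysed here.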

Additional observations from a re-analysis of the deposited data

How the results depend on the processing

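With n = 3 a group, 1 sample decided several calls, and the cause was not tested. Of 240 alternative values for the members, 188 kept both direction and call, 27 newly passed, 15 no longer passed and 10 changed sign. For in vitro DOX against vehicle, miR-150 no longer passed with total-count scaling (1.68), positive-control scaling (1.10), housekeeping scaling (1.41), no filter (1.11), the authors' corrected counts (1.76), only the groups compared (1.62) and limma with pseudocounts 1 (1.25) and 10 (1.24). There miR-146a moved to -0.018 without a filter. With housekeeping scaling miR-146a no longer passed for MI (1.17) or vehicle (1.08) against controls. For in vivo DOX against controls, miR-150 passed with positive-control scaling (2.28), no filter (2.09), only miRNAs above background in all lanes (1.99), only the groups compared (1.80) and DESeq2 (2.0), and miR-146a with all-lane miRNAs (0.87) and DESeq2 (0.91). For MI against controls, miR-150 passed with positive-control scaling (2.37), no filter (1.62) and only the groups compared (0.97). For in vivo DOX against MI, miR-146a passed with total-count scaling (-0.95), positive-control scaling (-1.69), no filter (-1.2), background subtraction (-1.04) and DESeq2 (-0.82), and miR-150 with only the groups compared (0.86) and reversed to -0.094 with positive-control scaling. With only the groups compared, miR-150 passed for vehicle against controls (0.78), where the spread within groups was little more than counting error and may be technical. The in vivo minus in vitro DOX effect reversed with housekeeping scaling (miR-146a -0.13, miR-150 -0.30) and, for miR-150, with background subtraction (-0.0080).

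Without in vitro DOX sample 3, in vivo DOX sample 1 and MI sample 3 together, a choice made after seeing the data, miR-146a passed for in vitro DOX against vehicle (0.85), in vivo DOX against controls (0.73) and in vivo DOX against MI (-1.29), miR-150 passed for in vivo DOX (2.07), MI (1.44) and vehicle (0.72) against controls and for in vivo DOX against MI (0.63), and the effect of DOX in vivo minus in vitro was -0.12 and -0.16. Leaving out 1 sample at a time gave, for miR-146a and miR-150, 0.27 to 0.85 and 1.34 to 2.23 for in vitro DOX against vehicle, 0.67 to 0.91 and 1.51 to 2.07 for in vivo DOX against controls, 1.31 to 2.0 and 0.71 to 1.44 for MI against controls, -1.18 to -0.49 and 0.47 to 1.2 for in vivo DOX against MI, 1.35 to 1.65 and 0.68 to 0.81 for vehicle against controls, and -0.030 to 0.55 and -0.32 to 0.56 for the in vivo minus in vitro effect. As in the main fit, the spread was pooled over all groups, also where that left a group with 2 samples. Only the fits of the groups compared used the spread of those groups alone.

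The number of called miRNAs was 33 for in vitro DOX against vehicle, 4 for in vivo DOX against controls, 41 for MI against controls, 35 for in vivo DOX against MI, 20 for vehicle against controls and 1 for the in vivo minus in vitro effect. Over the alternatives other than leaving out 1 sample it ran from 1 to 83, 1 to 53, 10 to 68, 13 to 72, 5 to 67 and 0 to 18, in that order. Leaving out 1 sample gave 17 to 69, 0 to 21, 21 to 34, 17 to 53, 4 to 18 and 1 to 11. Replicate numbers showed no clear pairing of the samples. Of 30 same-number correlations, which ran from -0.53 to 0.51, 7 exceeded 0.1, and 3 of 15 samples correlated best with their own number. This check could not exclude pairing, because vehicle samples and controls differed among themselves by little more than counting error. The replicate block changed no call of the members (miR-150 for in vitro DOX against vehicle 1.5, miR-146a for MI against controls 1.58) but left 1 call in place of 4 for in vivo DOX against controls. A block for stage position was not run, because each comparison either lay within 1 stage position or had stage positions that each held samples of different groups only.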
